A study of Mus musculus with 8 samples.

Results

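The genes described here encode the signalling chains of the T cell receptor (Cd3d, Cd3e, Cd3g and Cd247), the CD8 co-receptor (Cd8a and Cd8b1), the scavenger-family receptor CD5 (Cd5) and the Fc receptor gamma chain (Fcer1g), a relative of the zeta chain that Cd247 encodes. They were taken by symbol from the deposited gene tables, and all 8 were found among the 23746 rows of each table. RNA-seq had been made from CD8+ T cells of BALB/c mice that bound the AH1 tetramer, a reagent that marks T cells specific for the AH1 tumour antigen. The labels crossed genotype (Cd69 knockout, called Cd69-deficient here, or wild type) with a sorted subset (term diff, written term-diff here, or stem-like). This gave 4 groups of 2 libraries: Cd69-deficient term-diff, wild-type term-diff, Cd69-deficient stem-like and wild-type stem-like. The tumour, the ages and number of mice, the Cd69 allele and the sort gates were not given in the sources used here.

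An alpha-beta T cell receptor has almost no cytoplasmic tail, and its signal is passed on by the invariant CD3 gamma, delta, epsilon and zeta chains that assemble with it. Each of these carries immunoreceptor tyrosine-based activation motifs (ITAMs), whose tyrosines are phosphorylated by the kinase Lck and then bound by the kinase ZAP-70. CD8 binds class I MHC and brings Lck to the receptor, and CD5 restrains its signal. The Fc gamma chain carries an ITAM of its own, is best known as the signalling subunit of IgE and IgG receptors in mast cells, myeloid cells and NK cells, and can stand in for zeta in some T cells.

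The coding stretches of the motifs are printed because they are what joins Fcer1g to the zeta and CD3 chains and sets Cd8a, Cd8b1 and Cd5 apart. They were read from the GENCODE vM21 transcripts (build mm10), 5′ to 3′ on the coding strand. Capitals mark the codons of the tyrosines and of the leucines or isoleucines that define the motif.
Fcer1g: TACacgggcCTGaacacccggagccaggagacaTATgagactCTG
Cd247 ITAM 1: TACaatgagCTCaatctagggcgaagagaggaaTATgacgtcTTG
Cd247 ITAM 2: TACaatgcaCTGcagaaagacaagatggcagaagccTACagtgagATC
Cd247 ITAM 3: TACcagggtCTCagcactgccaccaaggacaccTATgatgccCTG
Cd3d: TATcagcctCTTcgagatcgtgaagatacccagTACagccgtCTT
Cd3e: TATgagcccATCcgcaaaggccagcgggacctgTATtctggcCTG
Cd3g: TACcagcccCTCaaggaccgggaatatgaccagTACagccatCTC

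The search took a tyrosine codon, any 2 codons and a leucine or isoleucine codon, then the same pattern again after a gap of 6 to 8 codons. It found 1 stretch in Fcer1g, 3 in Cd247 and 1 each in Cd3d, Cd3e and Cd3g, and 0 in Cd8a, Cd8b1 and Cd5. The Fcer1g stretch (codons 65 to 79 of 86) was identical to the third stretch of Cd247 at 29 of 45 bases (64.4%), and to that of Cd3d at 13 of 45 bases (28.9%). These were its highest and lowest matches. Between them were the first stretch of Cd247 (51.1%), Cd3g (46.7%) and Cd3e (40%). Cd3d and Cd3g matched at 32 of 45 bases (71.1%), the highest share among the stretches of 45 bases. Every stretch was spread over 2 coding exons. That of Fcer1g lay on the minus strand at chr1:171230067-171230072 and chr1:171229889-171229927, and the third of Cd247 on the plus strand at chr1:165859819-165859824 and chr1:165861004-165861042.

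The 3 CD3 genes lie next to each other on chromosome 9, Cd3g at chr9:44969572-44980431 (minus strand), Cd3d at chr9:44981786-44987052 (plus strand) and Cd3e at chr9:44998743-45009590 (minus strand). Only 1354 bases separate the Cd3g and Cd3d loci, which are transcribed away from each other. Cd8b1 (chr6:71322812-71337451) and Cd8a (chr6:71373427-71379171) are neighbours on the plus strand of chromosome 6, with 35975 bases between their loci. Fcer1g (chr1:171229572-171234349, minus strand) and Cd247 (chr1:165788681-165871153, plus strand) are on chromosome 1, and Cd5 is on chromosome 19 (chr19:10718143-10738974, minus strand). The Cd247 locus shares 6000 bases with that of Pou2f1 on the other strand, which was at 1.72 to 2.77 FPKM in the 8 libraries. The strand setting of the counting was not given, so reads from those bases could belong to either gene.

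Levels are FPKM as deposited (fragment numbers put on a common scale for the length of the transcript and the size of the library). The deposited confidence limits implied 2055402 to 2591061 fragments per library. Cd69 checked the genotype labels, at 2.21 to 3.69 FPKM in the 4 Cd69-deficient libraries against 10.4 to 23.4 FPKM in the 4 wild-type libraries. Tcf7, a transcription factor of stem-like cells, was at 0.228 to 0.755 FPKM in term-diff cells against 40.6 to 64.2 FPKM in stem-like cells, and Havcr2, a marker of terminal differentiation, at 23.3 to 39.7 FPKM against 0.847 to 2.29 FPKM. Replicate 2 of both wild-type groups stood apart: small RNA symbols held 54.4% of the summed FPKM in the term-diff library and 61.1% in the stem-like one, against 76.3% to 83.4% in the other 6 libraries.

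Comparisons were tested with limma on log2(FPKM + 1) over the 9782 genes that reached 1 FPKM in 2 or more libraries, and a gene was called at a Benjamini-Hochberg adjusted p under 0.05. All 8 genes passed that filter. The labels do not say which libraries share a mouse, so p-values measure the spread between libraries. In these bulk samples, fewer cells of a type and less RNA per cell cannot be told apart.

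Averaged over the 8 libraries, Cd3g had the highest level, 457 ± 87.9 FPKM (SD, n = 8), above 99.1% of the genes kept. Cd3e followed at 211 ± 17.1 FPKM, Cd8a at 142 ± 13.9, Cd8b1 at 120 ± 31.4, Cd247 at 44.3 ± 9.67, Cd3d at 28.5 ± 7.05, Cd5 at 21.1 ± 7.15 and Fcer1g at 12.4 ± 12.7 FPKM. The libraries of Cd3g and Cd3e did not overlap, nor did those of Cd3e and Cd8a or of Cd8b1 and Cd247. Those of Cd8a and Cd8b1, of Cd247 and Cd3d, of Cd3d and Cd5, and of Cd5 and Fcer1g overlapped. The chains of one receptor complex thus stood at levels per length that spanned more than an order of magnitude, with Cd3d lowest of the CD3 genes in every library.

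**Figure D1:**
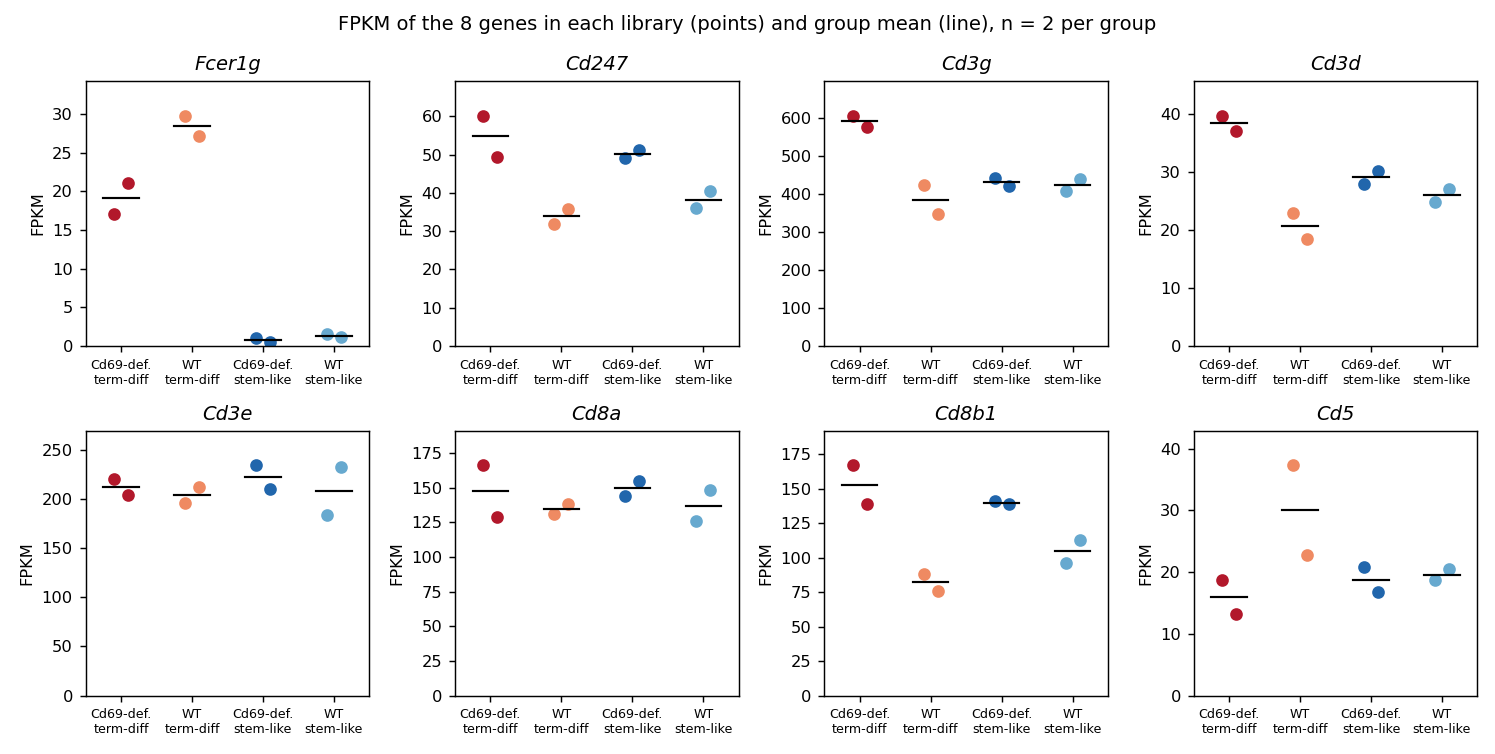
FPKM of each of the 8 genes (linear axes from 0) in the 2 libraries of each group (points), with the group mean as a line. Fcer1g is at 17.1 to 29.8 FPKM in the 4 term-diff libraries and at 0.52 to 1.53 FPKM in the 4 stem-like libraries, while the genotypes of Cd3e and Cd8a overlap in both subsets.

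Fcer1g, the Fc gamma chain, was the gene of this set that separated the sorted subsets. It had 17.1 and 21.1 FPKM in Cd69-deficient term-diff cells, against 1.02 and 0.52 FPKM in Cd69-deficient stem-like cells. In wild-type mice it had 29.8 and 27.1 FPKM in term-diff cells, against 1.53 and 1.18 FPKM in stem-like cells. Every term-diff library was above every stem-like library. The ratio of the group means was 24.7 in Cd69-deficient mice and 21 in wild-type mice. On the log2(FPKM + 1) scale, which understates a change from such low levels, Fcer1g was higher in term-diff cells by 3.51 ± 0.17 (SE) in Cd69-deficient mice (adjusted p = 4.21e-05, limma) and by 3.65 ± 0.17 in wild-type mice (adjusted p = 2.34e-05). Averaged over the genotypes the difference was 3.58 ± 0.12 (adjusted p = 2.37e-06).

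The depth behind the stem-like values was small. The deposited limits implied 4 and 2 fragments of Fcer1g in Cd69-deficient and 6 and 4 in wild-type stem-like cells, and 3 of those 4 deposited intervals reached 0. The term-diff libraries held 64 and 74 fragments in Cd69-deficient and 121 and 112 in wild-type mice. Per total fragments, the summed ratio was 24.7 in Cd69-deficient mice (138 against 6 fragments, exact 95% interval 11.1 to 68.5) and 19.8 in wild-type mice (233 against 10 fragments, 10.6 to 41.9). These intervals cover counting error only and rest on fragment numbers that are themselves approximate.

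The other 7 genes were not called between the subsets. Of the 8 genes, 1 was called higher in each subset comparison and 0 were called lower, where 9.45% of the 9782 genes were called in Cd69-deficient mice, 13.1% in wild-type mice and 20.5% when averaged over the genotypes. The median difference of the 8 genes was 0.12 in Cd69-deficient mice and -0.08 in wild-type mice, and that of all genes -0.03 and 0.06. For Cd3e the interval of the averaged difference ran from -0.35 to 0.27, for Cd8a from -0.32 to 0.27 and for Cd247 from -0.26 to 0.21 (95%, log2 scale). The averaged difference of Cd3d (0.04) combined values of opposite sign, 0.39 in Cd69-deficient mice (95% interval 0.07 to 0.70, adjusted p = 0.122, limma) and -0.32 in wild-type mice (-0.63 to -0.0031, adjusted p = 0.174). Within 1 genotype the intervals were wider than these averaged ones. The widest of the set were those of Cd5 (-0.79 to 0.33 in Cd69-deficient and -0.01 to 1.11 in wild-type mice) and Cd3g (-0.07 to 0.98 and -0.67 to 0.38). In the same order, Cd3e had -0.50 to 0.38 and -0.45 to 0.42, and Cd8b1 -0.27 to 0.51 and -0.73 to 0.05.

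**Figure D2:**
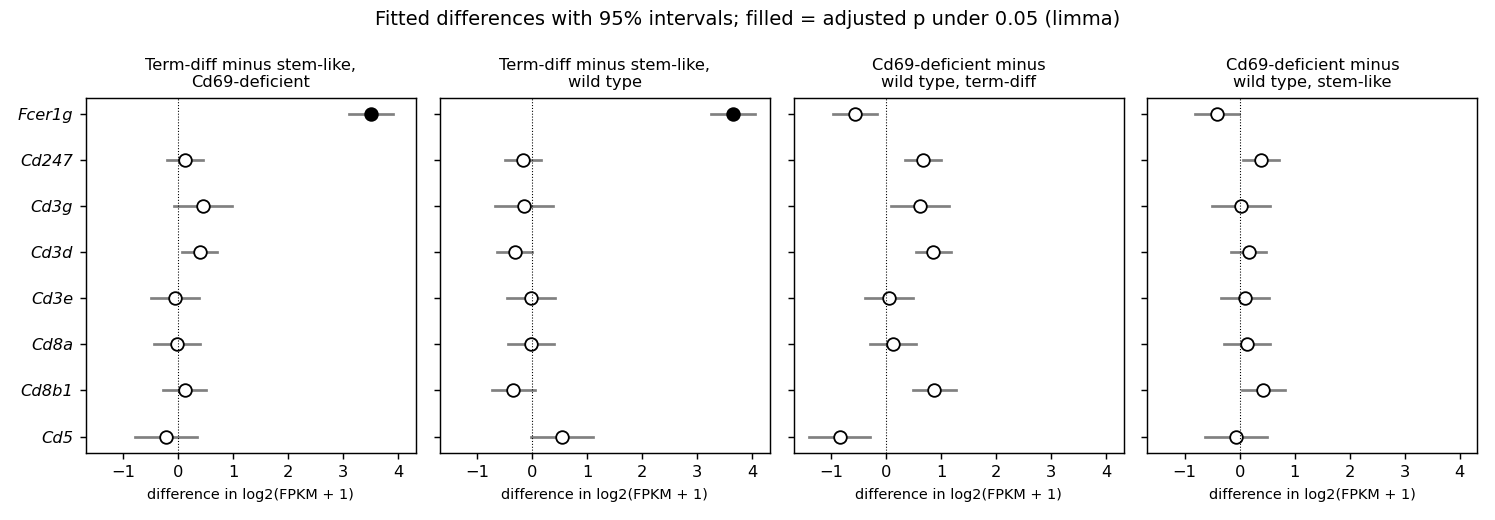
Fitted difference in log2(FPKM + 1) of each gene (points) with its 95% interval (lines), in the subset comparisons of each genotype (left) and the genotype comparisons of each subset (right); filled points have an adjusted p under 0.05. Fcer1g is the only filled point, at 3.51 and 3.65, and the term-diff genotype comparison holds intervals on both sides of 0, Cd3d at 0.86 and Cd5 at -0.84.

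The levels of the CD3 chains did not share 1 pattern over the groups, though the chains were not tested against each other. Cd3d, which pairs with epsilon, had 39.7 and 37 FPKM in Cd69-deficient term-diff cells, against 23 and 18.5 FPKM in wild-type term-diff cells. In stem-like cells it had 28 and 30.1 FPKM in Cd69-deficient mice, against 24.8 and 27.1 FPKM in wild-type mice. All 4 Cd69-deficient libraries were above all 4 wild-type libraries. The difference was 0.86 ± 0.14 in term-diff cells (adjusted p = 0.0706, unadjusted p = 0.000204, limma) and 0.16 ± 0.14 in stem-like cells (adjusted p = 0.841), and neither was called. The difference between these differences was 0.71 ± 0.19 (adjusted p = 0.539, limma).

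Cd3g, which also pairs with epsilon, had 605 and 576 FPKM in Cd69-deficient term-diff cells, against 422 and 346 FPKM in wild-type term-diff cells. Cd69-deficient stem-like cells had 441 and 419 FPKM, against 406 and 439 FPKM in wild-type stem-like cells. The genotypes did not overlap in term-diff cells and overlapped in stem-like cells. The term-diff difference of 0.63 ± 0.23 was not called (adjusted p = 0.284, limma).

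Cd3e, the partner of both, had 220 and 204 FPKM in Cd69-deficient term-diff cells, against 196 and 212 FPKM in wild-type term-diff cells. Its stem-like levels were 234 and 210 FPKM in Cd69-deficient mice, against 184 and 232 FPKM in wild-type mice. The genotypes overlapped in both subsets, and the interval of the term-diff difference ran from -0.38 to 0.50.

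Cd247, the zeta chain that holds 3 of the 6 ITAM stretches of the CD3 and zeta genes, had 60.2 and 49.4 FPKM in Cd69-deficient term-diff cells, against 32 and 35.9 FPKM in wild-type term-diff cells. In stem-like cells it had 49.2 and 51.1 FPKM in Cd69-deficient mice, against 36 and 40.4 FPKM in wild-type mice. As with Cd3d, every Cd69-deficient library was above every wild-type library. The difference was 0.67 ± 0.14 in term-diff cells (adjusted p = 0.145, limma), 0.39 ± 0.14 in stem-like cells (adjusted p = 0.6) and 0.53 ± 0.10 over both subsets (adjusted p = 0.0808).

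The levels of the co-receptor chains had different profiles over the groups, though the chains were not tested against each other. Cd8b1, the beta chain, had 167 and 139 FPKM in Cd69-deficient term-diff cells, against 88.5 and 76.1 FPKM in wild-type term-diff cells. Cd69-deficient stem-like cells had 141 and 139 FPKM, against 96.1 and 113 FPKM in wild-type stem-like cells. Again the genotypes did not overlap over the 8 libraries. The difference over both subsets was 0.65 ± 0.12 (adjusted p = 0.0714, limma), and that in term-diff cells 0.88 ± 0.17 (adjusted p = 0.117).

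Cd8a, the alpha chain, which binds Lck through its tail, had 166 and 129 FPKM in Cd69-deficient term-diff cells, against 131 and 138 FPKM in wild-type term-diff cells. Its stem-like levels were 144 and 155 FPKM in Cd69-deficient mice, against 126 and 148 FPKM in wild-type mice. The genotypes overlapped in both subsets, with a term-diff difference of 0.12 ± 0.18 (adjusted p = 0.774, limma).

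Cd5, whose product dampens receptor signalling, had 18.8 and 13.3 FPKM in Cd69-deficient term-diff cells, against 37.3 and 22.7 FPKM in wild-type term-diff cells. In stem-like cells it had 20.8 and 16.8 FPKM in Cd69-deficient mice, against 18.7 and 20.5 FPKM in wild-type mice. The genotypes did not overlap in term-diff cells, where the difference was -0.84 ± 0.24 (adjusted p = 0.216, limma), and the wild-type pair was the most widely spread of the 4 groups. Without wild-type term-diff replicate 1, its highest library, the difference was -0.50, and it was not called. Fcer1g was likewise lower in both Cd69-deficient term-diff libraries than in both wild-type ones, with a difference of -0.56 ± 0.17 (adjusted p = 0.247). The Fcer1g difference was -0.42 ± 0.17 in stem-like cells (adjusted p = 0.654, limma) and -0.49 ± 0.12 over both subsets (adjusted p = 0.174). Its subset difference did not differ between genotypes beyond the error, with an interaction of -0.14 ± 0.25 (95% interval -0.70 to 0.43, adjusted p = 0.85).

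Counted over the set, 0 of 8 genes were called by genotype, in term-diff cells (0.194% of all genes called), in stem-like cells (0.153%) or over both subsets (0.542%). None was called in the interaction either (0.0307%). At an unadjusted p under 0.05 there were 6 genes in term-diff cells, 3 in stem-like cells, 5 over both subsets and 1 in the interaction, while 15.1%, 7.3%, 12.4% and 9.1% of all genes passed that level. The median difference of the 8 genes in term-diff cells was 0.37, against -0.05 for all genes. In term-diff cells the genotypes did not overlap for 6 of the 8 genes, as for 47.8% of all genes. Over the 8 libraries they did not overlap for 3 genes, Cd3d, Cd247 and Cd8b1, as for 3.07% of all genes.

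The genotype values depended on the scaling. The summed FPKM was 881472 to 919280 in Cd69-deficient term-diff libraries against 282589 to 652535 in wild-type term-diff libraries, and small RNA symbols made up most of each sum. When each library was rescaled to the mean sum, the median of all genes moved by -0.86 and the term-diff differences of Cd3d, Cd3g, Cd247 and Cd8b1 turned negative (-0.17, -0.44, -0.38 and -0.18). Relative to that median they were 0.74, 0.46, 0.53 and 0.73. The same rescaling put Cd3e at -1.01, Cd8a at -0.94, Cd5 at -1.86 and Fcer1g at -1.58 (relative to the median -0.10, -0.03, -0.96 and -0.68). Over both subsets that rescaling put Cd3d at -0.27, Cd247 at -0.26 and Cd8b1 at -0.15 (relative to the median 0.39, 0.39 and 0.51). In term-diff cells, quantile normalization turned Cd3g to -0.30, Cd3e to -0.54 and Cd8a to -0.33. It left Cd3d at 0.81, Cd247 at 0.54, Cd8b1 at 0.52, Cd5 at -0.81 and Fcer1g at -0.54. A count-based fit (limma-voom on the implied fragments) called Cd3d, Cd3g, Cd247, Cd8b1 and Cd5 in term-diff cells (adjusted p = 0.000825, 0.00177, 0.00321, 0.000129 and 0.0265). That fit called 340 of the 9782 genes there, against 19 in the main fit. Without both wild-type replicate 2 libraries, the term-diff differences were 0.71 for Cd3d, 0.75 for Cd247 and 0.77 for Cd8b1, and none was called.

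Ratios of deposited FPKM within a library do not change when the library is multiplied by 1 factor, though they do under quantile normalization, and are given without a test. The ratio of Cd8b1 to Cd8a was 1 and 1.07 in Cd69-deficient term-diff cells, against 0.678 and 0.55 in wild-type term-diff cells. In stem-like cells it was 0.982 and 0.896 in Cd69-deficient mice, against 0.762 and 0.763 in wild-type mice. Over both subsets it averaged 0.989 ± 0.0736 in Cd69-deficient mice and 0.688 ± 0.1 in wild-type mice (SD, n = 4 each), with no overlap. The level of the beta chain was thus near that of the alpha chain in Cd69-deficient libraries and below it in wild-type libraries. Cd8b1 alone also did not overlap between the genotypes and was not called, so this ratio is not a separate result.

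The ratio of Cd247 to Cd3e was 0.273 and 0.242 in Cd69-deficient term-diff cells, against 0.164 and 0.169 in wild-type term-diff cells, and 0.211 and 0.244 in Cd69-deficient stem-like cells, against 0.196 and 0.174 in wild-type stem-like cells. Here too the genotypes did not overlap, as they did not for Cd247 alone. The ratio of Cd3d to Cd3e stood out in 1 group: it was 0.181 in both Cd69-deficient term-diff libraries, against 0.117 and 0.0871 in wild-type term-diff cells. The stem-like values were 0.12 and 0.144 in Cd69-deficient mice, against 0.135 and 0.117 in wild-type mice. The ratio of Cd3g to Cd3e was 2.75 and 2.82 in Cd69-deficient term-diff cells, against 2.15 and 1.63 in wild-type term-diff cells, and lay between 1.89 and 2.21 in the 4 stem-like libraries. For both CD3 ratios, the Cd69-deficient term-diff libraries were the highest of all 8.

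The ratio of Fcer1g to Cd247 compares the Fc gamma chain with its zeta relative. It was 0.284 and 0.427 in Cd69-deficient term-diff cells, against 0.0208 and 0.0102 in Cd69-deficient stem-like cells. In wild-type mice it was 0.929 and 0.754 in term-diff cells, against 0.0425 and 0.0291 in stem-like cells. In wild-type term-diff cells the level of Fcer1g per length therefore came close to that of Cd247, and in Cd69-deficient term-diff cells it was at most 0.427 of it.

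**Figure D3:**
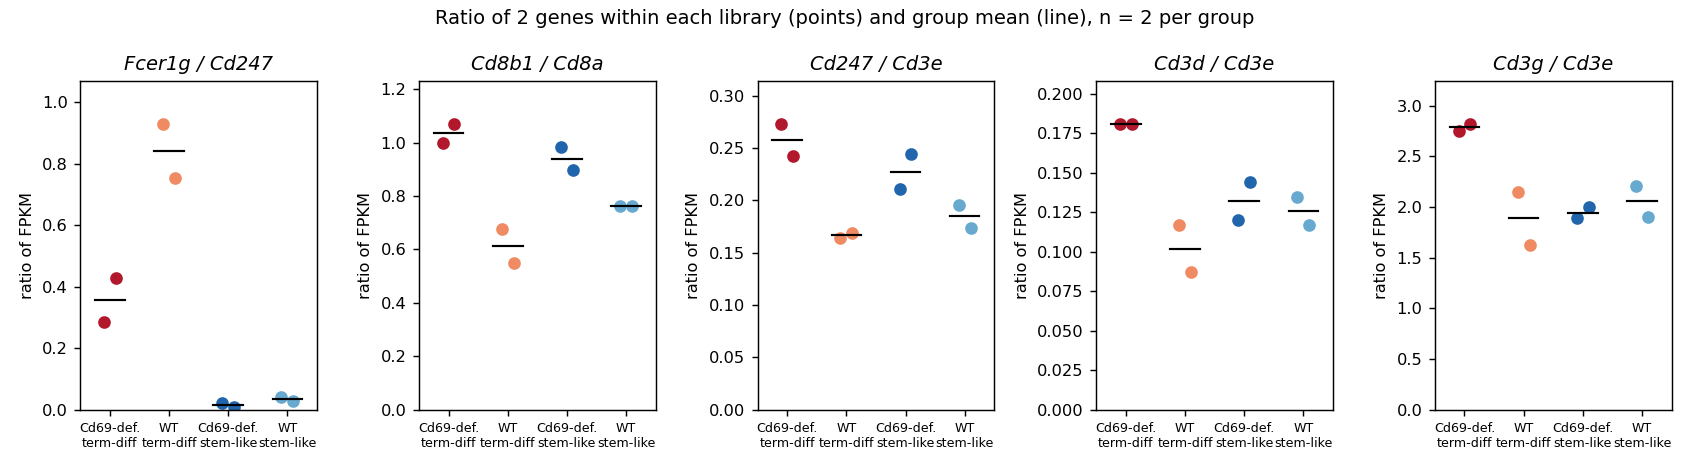
Ratio of the FPKM of 2 genes within each library (points; linear axes from 0) and the group mean (line). Cd8b1 to Cd8a is 0.896 to 1.07 in Cd69-deficient and 0.55 to 0.763 in wild-type libraries, and Fcer1g to Cd247 is at most 0.0425 in stem-like libraries.

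The Fc gamma chain normally works beside a ligand-binding receptor, and genes of such receptors were at low levels here. Of 20 receptor genes listed around it (Fc receptors, Ncr1, Gp6, C-type lectins, paired immunoglobulin-like receptors and IL-3 receptor chains; Fcgr2b, which signals through an inhibitory motif of its own, was on the list too), 1 passed the filter. That was Il3ra, the IL-3 receptor alpha chain, at 2.38 to 3.26 FPKM, and it was not called in any comparison. The next highest were Fcgr2b with at most 0.774 FPKM, Fcgr4 with 0.664, Gp6 with 0.488 and Ncr1 with 0.375 FPKM. The IgE receptor alpha chain Fcer1a reached 0.31 FPKM and the IgG receptors Fcgr3 and Fcgr1 reached 0.308 and 0.194 FPKM. Summed, the 20 genes gave 4.16 to 4.91 FPKM in term-diff libraries and 3.51 to 4.94 FPKM in stem-like libraries. Il3ra was the largest part of that sum, which overlapped between the subsets, while Fcer1g did not.

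Among 12 further genes listed as partners of the receptor or as adaptors of its kind, 9 passed the filter. None was called in the subset comparison of either genotype, and 1 was called higher and 1 lower in term-diff cells when averaged over the genotypes. These 2 of 9 are near the 20.5% of all genes called there. Hcst (DAP10), the adaptor of NKG2D, was at 17.7 to 21.4 FPKM in Cd69-deficient term-diff cells, against 9.28 to 10.4 FPKM in Cd69-deficient stem-like cells. It was at 12 to 15.4 FPKM in wild-type term-diff cells, against 5.35 to 10.1 FPKM in wild-type stem-like cells (0.86 ± 0.18 on average, adjusted p = 0.0109, limma). The co-stimulatory receptor Cd28 fell by 0.39 on average (adjusted p = 0.0338). Tyrobp (DAP12), an adaptor that carries an ITAM, was at 0 to 1.47 FPKM in the 8 libraries, and its averaged difference of -0.26 was not called (adjusted p = 0.377). None of the 9 was called by genotype.

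Of 29 proximal kinases, phosphatases and adaptors, 28 passed the filter. In term-diff cells 5 were higher and 3 lower when averaged over the genotypes; the counts were 4 and 2 in Cd69-deficient mice and 5 and 1 in wild-type mice, and 0 by genotype. Of all genes, 20.5% were called on average, 9.45% in Cd69-deficient mice and 13.1% in wild-type mice. The median of the 28 was 0.07 on average, against 0.02 for all genes. Sh2d2a, an adaptor of Lck, was higher by 0.89 ± 0.11 (adjusted p = 0.000797, limma), the Tec-family kinase Txk by 0.82 ± 0.10 (adjusted p = 0.00109) and the docking protein Dok2 by 0.61 ± 0.10 (adjusted p = 0.00376). The adaptor Sla fell by 0.72 (adjusted p = 0.00227). Zap70 was at 43.5 to 51.8 FPKM in the 8 libraries, with an averaged difference of 0.02 ± 0.10 (95% interval -0.20 to 0.25). Its relative Syk, the kinase that most often binds the Fc gamma chain's ITAM outside T cells, was at 0.0949 to 0.271 FPKM.

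**Figure D4:**
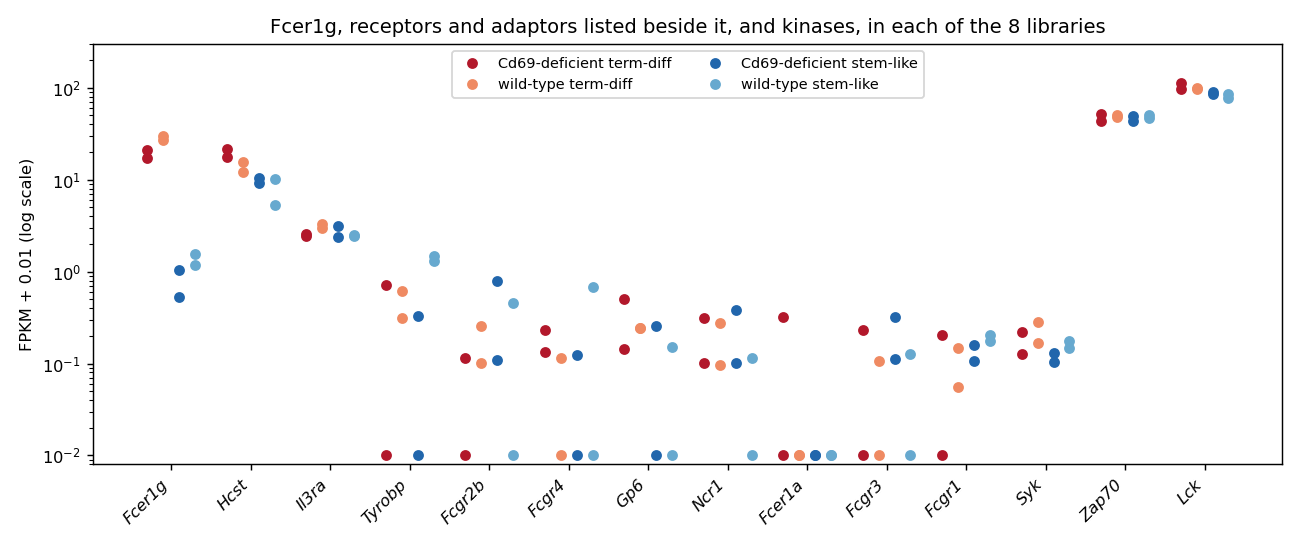
FPKM plus 0.01 (log axis) of Fcer1g, of receptors and adaptors listed beside it, and of the kinases Syk, Zap70 and Lck, in each library (points; colours are groups, term-diff left of stem-like). Fcer1g is set apart by subset, the Fc receptor genes are at or under 0.774 FPKM in every library, and Zap70 is at 43.5 to 51.8 FPKM throughout.

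Because Fcer1g is a gene of myeloid, mast and NK cells, their markers were read without Fcer1g itself. Of 15 myeloid markers, 13 had a row and 3 passed the filter. They summed to 3.87 to 6.97 FPKM in Cd69-deficient term-diff cells, against 8.42 to 8.94 FPKM in Cd69-deficient stem-like cells. In wild-type mice the sum was 3.27 to 7.65 FPKM in term-diff cells, against 6.64 to 8.72 FPKM in stem-like cells. The myeloid sums were thus lower in term-diff cells of Cd69-deficient mice and overlapped between the subsets in wild-type mice. The part of myeloid cells in the Fcer1g result was not tested. The markers with the highest levels were Cd68 (0.964 to 3.32 FPKM), Lyz2 (0.26 to 3.11), Tyrobp (0 to 1.47) and Aif1 (0 to 1.31). Each of the other 9 with a row reached at most 0.794 FPKM, the highest value of C1qa. Of 9 mast cell and basophil markers, Mcpt8 was at 0 in all 8 libraries, and the others but Kit reached at most 0.585 FPKM. Kit alone was at 0.373 to 5.11 FPKM. With Kit, the 9 markers summed to 1.02 to 1.78 FPKM in term-diff libraries and 2.39 to 5.23 FPKM in stem-like libraries. The part of these cells in the Fcer1g result was not tested either.

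Of 8 NK cell markers, 3 passed the filter, and they summed to 37.7 to 38 FPKM in Cd69-deficient term-diff cells, against 20.1 to 23.3 FPKM in Cd69-deficient stem-like cells. In wild-type mice the sum was 28.5 to 32.3 FPKM in term-diff cells, against 25.9 to 28.6 FPKM in stem-like cells. This sum moved with Fcer1g in Cd69-deficient mice, and its part in the result was not tested. Klre1, a lectin-like receptor that activated CD8+ T cells also express, made up most of it, at 14.1 to 36.4 FPKM. Eomes was at 1.32 to 6.84 FPKM, while Ncr1 and Klrb1c reached 0.375 and 0.195 FPKM at most. Markers of B cells, platelets and neutrophils stayed under 1 FPKM in every library (0.504, 0.763 and 0.626 at most), as did the gamma-delta T cell markers with a row (0.175 at most). Of 7 CD4 and regulatory T cell markers, 6 passed the filter. Ctla4 was at 62.4 to 107 FPKM, Il2ra at 3.98 to 14.7, Cd4 at 1.38 to 5.52 and Cd40lg at 0.21 to 3.16 FPKM. Zbtb7b, Ikzf4 and Foxp3 reached 2.36, 1.94 and 1.14 FPKM at most. The highest dendritic cell marker reached 4.45 FPKM, and Pecam1 at 4.23 to 13.8 FPKM was the only tumour or stroma marker that passed the filter. All 9 markers listed for CD8 T cells passed it, 6 of which belong to the set described here.

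Genes whose profile over the 8 libraries was near that of Fcer1g were found among 5318 genes with a mean of at least 5 FPKM in some group, by the root mean square difference of the centred log2 profiles. They were Entpd1 (0.491), which encodes CD39, 1700017B05Rik (0.498), Ppp1r3b (0.560) and Adam8 (0.581). Of these, 1700017B05Rik was, like Fcer1g, lower in Cd69-deficient term-diff cells (13.1 to 16.5 FPKM) than in wild-type term-diff cells (23.3 to 27.9 FPKM). Entpd1 was at 20.7 to 25.7 FPKM in Cd69-deficient term-diff cells, against 20 to 21 FPKM in wild-type term-diff cells. The genes nearest to Cd247 were Sp140 (0.099), Il18rap (0.10) and Slc25a30 (0.103). Il18rap, a chain of the IL-18 receptor, was at 75.4 to 87.7 FPKM in the 4 Cd69-deficient libraries against 59 to 62 FPKM in the 4 wild-type libraries. All these genes were picked by their profile, so their likeness to Fcer1g or Cd247 over subset and genotype is not a separate result.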

How the data were processed

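Each of the 8 libraries came with 1 gene table in the layout of Cufflinks. The authors gave expression in FPKM with confidence limits, per the file headers. Per the submitters' processing notes, bcl2fastq 2.20, Bowtie2 2.3.4, TopHat 1.3.2, Cufflinks 2.2.1 and mm10 were used; per the labels, a stranded low-input kit was used on total RNA. The annotation and the strand setting were not given in the sources used here. FPKM depend on the transcript length assumed and on the library total.

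The deposited values were taken to log2(FPKM + 1) with no other scaling, and the 9782 genes that reached 1 FPKM in 2 or more libraries were kept. The limma package (3.58.1, under R 4.3.3) gave 4 group means over all 8 libraries, by empirical Bayes with a trend, with 4 residual and 4.2 prior degrees of freedom. The 7 comparisons were 2-sided, with Benjamini-Hochberg adjustment over all genes kept. Rows with a status other than OK were left out. Fragments were implied by the deposited interval, taking its upper arm as 2 Poisson standard errors; 69.4% to 70.0% of rows under 15 fragments lay within 0.05 of a whole number, so they are approximate. Loci are the deposited ones, with 1 added to the start. The code was tested on simulated data. No set test was run.

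The genes, the lists and the rules for naming genes were chosen with earlier results of these data known. The named genes were the 8 genes, Cd69, Tcf7 and Havcr2, up to 4 called genes of smallest p per list, the highest Fc partners and the nearest profiles (1 of which is not reported here); Zap70, Lck, Syk, Tyrobp and Fcer1a were added for their role. Results were recomputed under 22 other settings and under 1 chosen after seeing the data. Replicates of each group differed by more than counting noise (chi-square per gene 2.2 to 4.4). T cell receptor alpha and beta chain genes were not analysed here.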

Additional observations from a re-analysis of the deposited data

How the results depend on the processing

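Fcer1g was called higher in term-diff cells under each alternative run, at 2.06 to 4.51 in Cd69-deficient mice, 2.39 to 4.30 in wild-type mice and 2.23 to 4.41 on average (log2); the pseudocounts of 5 and 0.1 gave both ends of each range. The count of genes of the set called was otherwise as follows. Under limma-voom on implied fragments it was 3 in the subset comparison of Cd69-deficient mice, 2 in that of wild-type mice, 5 for genotype in term-diff cells and 4 for genotype over both subsets. In that order, limma-voom called 1634, 1883, 340 and 239 of the 9782 genes. Robust empirical Bayes gave 2 for genotype in term-diff cells and 3 over both subsets, and a threshold of 0.1 gave 1 and 3. Median-of-ratios scaling gave 2 for genotype over both subsets (Cd247 and Cd8b1), and quantile normalization 2 in the subset comparison of wild-type mice (Fcer1g and Cd3d, at -0.46). The cause was not tested. Leaving out each library in turn, or both wild-type replicate 2 libraries (chosen after seeing the data), left each count as it was: 1 in the subset comparisons and 0 in the genotype comparisons and the interaction. Of 1264 values of the 8 genes under alternatives, none that had been called was lost or reversed, 24 became called, and 94 that had not been called had the other sign, 26 of them from rescaling to the mean sum. Counts over all genes ran from 71 to 1634 in the subset comparison of Cd69-deficient mice, 153 to 1883 in wild-type mice and 252 to 2766 on average. By genotype they ran from 3 to 340 in term-diff cells, 4 to 55 in stem-like cells and 13 to 239 over both subsets, and in the interaction from 0 (limma-voom) to 51. Leaving out libraries alone gave 289 to 888, 325 to 1099 and 1287 to 1634 calls in the subset comparisons in that order, 3 to 21, 4 to 24 and 17 to 58 by genotype and 2 to 18 in the interaction. A fit of the compared groups alone gives no averaged or interaction value. Depth limits Fcer1g in stem-like cells, where it rests on 2 to 6 fragments a library.

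The deviations of same-numbered libraries correlated between -0.297 and 0.152, and the highest value was that of wild-type stem-like and wild-type term-diff cells. With 2 libraries a group, these values cannot decide whether the replicate numbers pair the libraries. With the replicate number as a block, 1 gene of the set (Fcer1g) was called in each subset comparison and 0 in the others. Over all genes the block gave 746 and 1070 calls in the subset comparisons of Cd69-deficient and wild-type mice and 1820 on average, 6 and 8 by genotype in term-diff and stem-like cells, 40 over both subsets and 2 in the interaction.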
